A study of Mus musculus with 3 samples.

Results

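The proteasome is described here through 47 genes of the 55536 gene rows in the deposited tables. They are the genes whose symbols start with Psma to Psmg followed by a number and which have a protein-coding transcript. Pseudogenes and the immunoproteasome catalytic subunits Psmb8, Psmb9 and Psmb10 were left out of the set. The set holds 8 alpha ring genes (Psma), 8 beta ring genes (Psmb), 6 base ATPases (Psmc), 11 non-ATPase subunits and 3 chaperones of the base (Psmd), 5 activator genes (Psme), the inhibitor Psmf1 and 4 chaperones of core assembly (Psmg). The last gene, Psmc3ip, met the symbol rule without being a proteasome gene and encodes a factor of meiotic recombination.

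The proteasome is the protease that degrades most ubiquitin-tagged proteins of a cell. Its barrel-shaped 20S core holds the cutting sites inside the beta rings, and the alpha rings form the gates. The 19S regulatory particle sits on the core, recognises ubiquitin, unfolds the substrate with a ring of ATPases and threads it into the core. In macrophages the proteasome also breaks down the inhibitors that hold NF-kappaB in the cytoplasm and makes the peptides shown on MHC class I.

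The RNA came from the cytosolic fraction of macrophages grown from bone marrow of C57BL/6J mice. The cells were first given Lipid A, the toll-like receptor 4 agonist of bacterial lipopolysaccharide, at 100 ng/ml for 12 h, then washed out for 12 h, then given 100 ng/ml Lipid A for 120 min. All 3 libraries belong to this 1 group and are numbered as biological replicates. They share 1 donor entry, that of the strain, so their spread may be technical, and with no untreated or once-treated cells among them no response to Lipid A can be read from them.

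Expected counts summed to 29376859 in replicate 1, 64822118 in replicate 2 and 37665844 in replicate 3. All 8 macrophage markers listed reached 1 TPM in every library, from Mertk at 25.7 TPM to Lyz2 at 2751 TPM, and markers of T, B and red cells and of fibroblasts averaged below 0.1 TPM. The highest markers of other cells were the endothelial Kdr at 4.21 TPM and the neutrophil S100a9 at 3.48 TPM. TPM is a level per transcript length, scaled to the same total in each library. The part of that total that fell to protein-coding genes was 32.5% in replicate 1, 26.5% in replicate 2 and 27.1% in replicate 3, so a level in TPM is best set against other protein-coding genes of the same library. Replicate 3 stood apart in nuclear and mitochondrial RNA. Malat1, a nuclear noncoding RNA, was at 191, 133 and 952 TPM in replicates 1, 2 and 3, and mitochondrial genes took 0.473%, 0.470% and 1.46% of the protein-coding TPM.

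Nearly the whole set was expressed, and most of it at levels well above the ordinary gene. In every library 44 of the 47 genes reached 1 TPM. Their median was 32.2 TPM, against 8.03 TPM over the 8612 protein-coding genes that reached 1 TPM in every library, and 38 of the 44 lay above that second value. A mean of 20 TPM was reached by 33 genes of the set and by 24.9% of the 8612 protein-coding genes. A mean of 100 TPM was reached by 4, namely Psme2, Psmb6, Psme1 and Psmd8, and by 5.23% of the 8612. Together the 47 genes took 0.682%, 0.728% and 0.671% of the protein-coding TPM in replicates 1, 2 and 3, or 0.694% ± 0.0302 (SD, n = 3). The summed level was 2214, 1928 and 1818 TPM, highest in replicate 1, in which protein-coding genes as a whole took the largest part of the TPM. The expected counts were whole numbers to within 0.005 in every library for 34 of the 47 genes, as is the case where no read is split between genes. The other 13 had fractional counts.

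**Figure D1:**
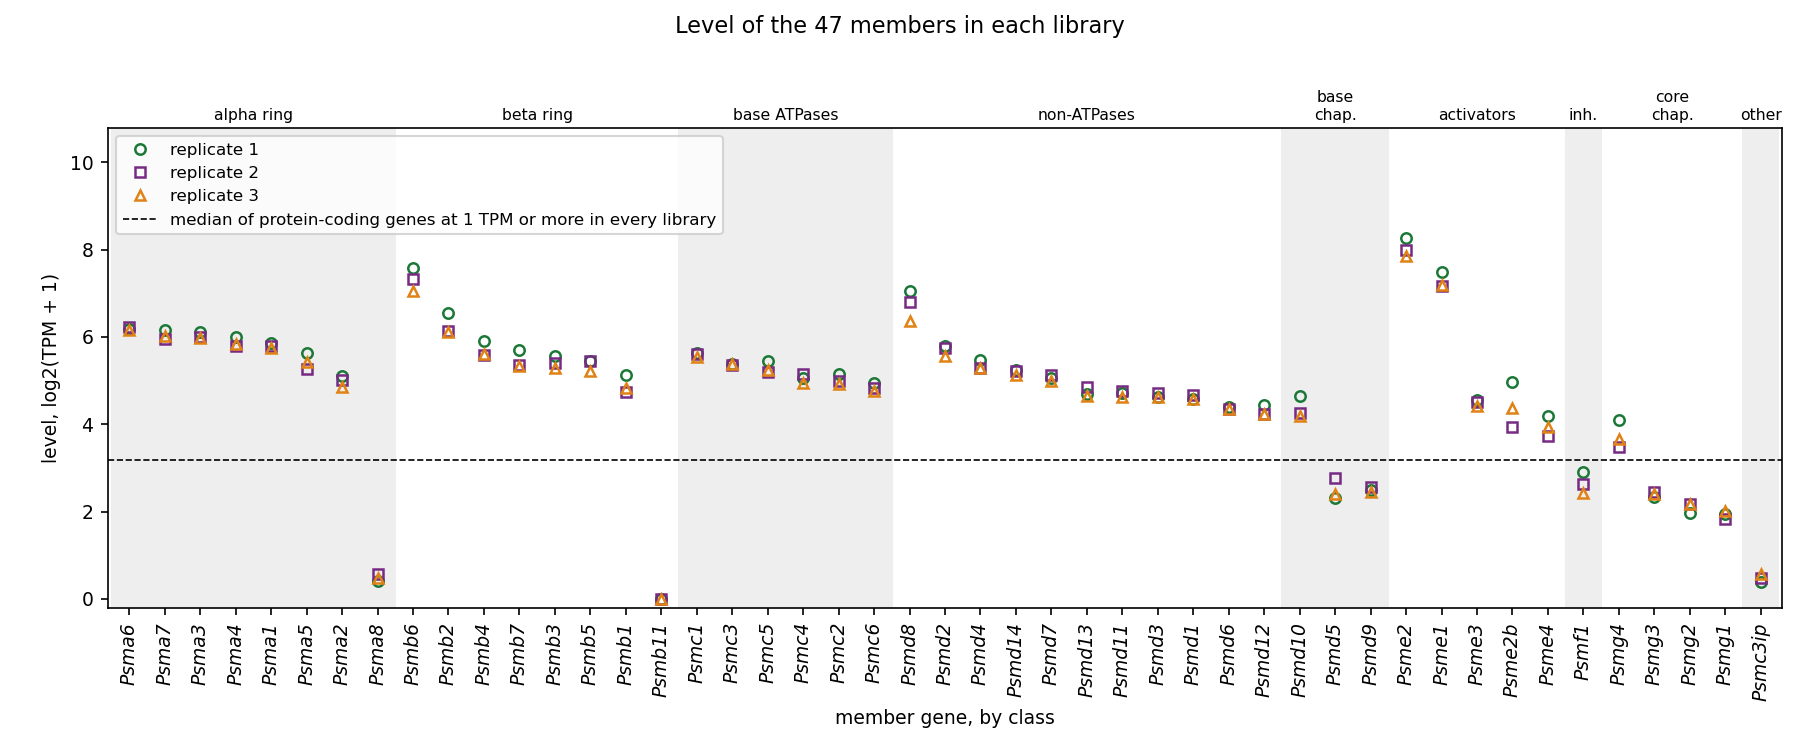
Level of each of the 47 genes in the 3 libraries, as log2(TPM + 1), grouped by class and ordered by mean within a class, with a dashed line at the median of protein-coding genes that reached 1 TPM in every library (8.03 TPM). Core, base and non-ATPase subunits lie above the line except Psma8 and Psmb11, while most chaperones of assembly and the inhibitor Psmf1 lie below it.

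The alpha ring genes, which build the outer rings and the gate of the core, were close in level. Leaving out Psma8, they lay within 2.32-fold of each other. Psma6 was the highest, at 71.1, 73.9 and 70.4 TPM in replicates 1, 2 and 3. Psma2 was the lowest of these 7, at 33.7, 31.2 and 27.9 TPM. Between them came, in falling order, Psma7, Psma3, Psma4, Psma1 and Psma5, the first 4 of which had means of 65.2 ± 4.95, 64.3 ± 3.49, 57.7 ± 4.17 and 54.6 ± 2.36 TPM (SD, n = 3 each). From Psma6 down to Psma1 the libraries of neighbours in this order overlapped. Psma5, at 48.2, 37.6 and 42.2 TPM, overlapped neither with Psma1 above it nor with Psma2 below it. Psma8, the alpha subunit of the testis proteasome, stood at 0.32, 0.48 and 0.40 TPM, with 18, 75 and 35 counts. The germ cell markers Ddx4 and Sycp1 averaged 0.46 and 0 TPM.

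The beta ring genes, which include the cutting subunits, spread 5.55-fold apart from the highest to the lowest of the 7 that reached 1 TPM. Psmb6, the subunit that cuts after acidic residues, stood at 191, 159 and 133 TPM in replicates 1, 2 and 3 (mm10, ENSMUSG00000018286.6, chromosome 11, 70525367 to 70527858). Its lowest library was above the highest library of every other beta ring gene. Psmb5, which cuts after bulky hydrophobic residues, stood at 42.5, 42.5 and 36.3 TPM (ENSMUSG00000022193.7, chromosome 14, 54614119 to 54618022). Psmb7, which cuts after basic residues, stood at 50.7, 40.3 and 39.2 TPM. The libraries of Psmb5 and Psmb7 overlap, and both lie near the class median of 44.1 ± 5.92 TPM (SD, n = 3). Among the subunits without a cutting site, Psmb2 was the highest, with 92.5, 68.9 and 68.2 TPM, and Psmb1 the lowest of the class, with 33.8, 25.7 and 27.5 TPM. Psmb11, the catalytic subunit of the thymus proteasome, had 0 expected counts in all 3 libraries of the gene table. The thymic epithelium markers Foxn1, Epcam and Krt5 were also at 0 TPM. In the second quantification Psmb11 averaged 0.0275 ± 0.0415 TPM (SD, n = 3), and the gene lies 3410 bases from Psmb5 on the opposite strand.

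The catalytic subunits have immunoproteasome counterparts that can take their places in the ring, and the 3 pairs did not lean the same way. Psmb5 was at 0.202, 0.286 and 0.220 times the level of its counterpart Psmb8 in replicates 1, 2 and 3, a difference of -2.07 ± 0.26 on the log2(TPM + 1) scale (SD, n = 3). Psmb7 was at 0.276, 0.314 and 0.312 times the level of Psmb10, a difference of -1.71 ± 0.11 (SD, n = 3). Psmb6 was at 2.75, 3.50 and 2.87 times the level of Psmb9, a difference of 1.58 ± 0.18 (SD, n = 3). Each pair had the same direction in every library. These are levels of cytosolic RNA from cultures of many cells, in which fewer cells of a kind and less RNA per cell cannot be told apart.

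**Figure D2:**
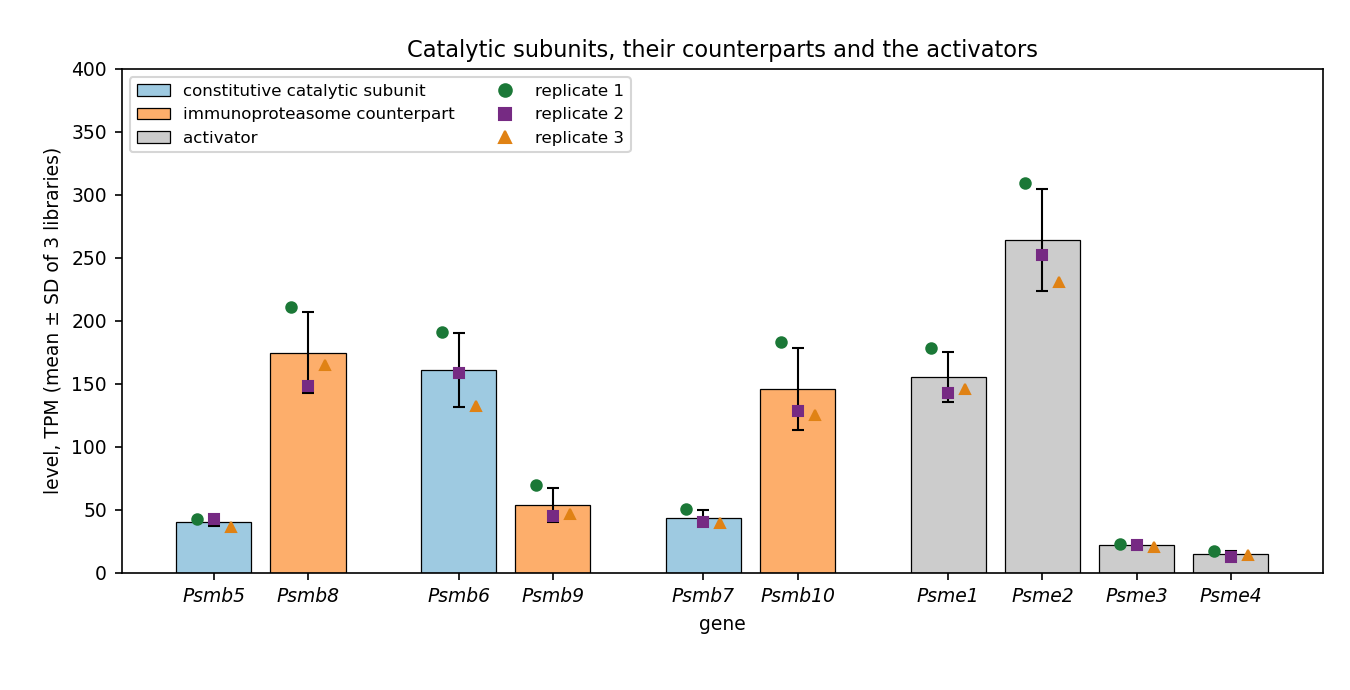
Level in TPM of the constitutive catalytic subunits beside their immunoproteasome counterparts, and of the activators Psme1 to Psme4 without Psme2b; bars are means of 3 libraries, error bars are SD, and points are the libraries. Psmb5 and Psmb7 are lower than Psmb8 and Psmb10, Psmb6 is higher than Psmb9, and Psme1 and Psme2 stand several-fold above Psme3 and Psme4.

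The base ATPases, the ring that unfolds substrates and opens the gate, lay closer together than any other class with more than 1 gene, within 1.70-fold. Psmc1 was the highest, at 48.5, 48.0 and 45.2 TPM in replicates 1, 2 and 3. Psmc6 was the lowest, at 29.9, 27.5 and 26.2 TPM, and its libraries do not overlap with those of Psmc1. Psmc3 had nearly the same deposited TPM in every library, 40.5, 40.3 and 40.3 TPM, but was not even on counts scaled to library size. On TMM-scaled CPM it had 81.5, 95.9 and 86.3 in replicates 1, 2 and 3, a ratio of 1.18 between the highest and the lowest library. Its libraries differed beyond counting error in the chi-square test described below. The median of the 6 was 35.3 ± 1.96 TPM (SD, n = 3).

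The non-ATPase subunits of the base and the lid, which bind and strip ubiquitin and hold the particle together, had a median of 25.7 ± 1.90 TPM (SD, n = 3), and 1 gene stood far above the others. Psmd8, a lid subunit, had 132, 111 and 81.8 TPM in replicates 1, 2 and 3 (ENSMUSG00000030591.17, chromosome 7, 29174188 to 29180701). Its lowest library exceeded the highest library of the next gene, Psmd2, a large scaffold of the base at 54.0, 52.3 and 46.2 TPM. Psmd14, the deubiquitinase that removes ubiquitin chains as the substrate enters, had 37.0, 36.4 and 34.1 TPM. Psmd4, a ubiquitin receptor, had 43.3, 37.9 and 37.8 TPM. The lowest was Psmd12, a lid subunit, with 20.7, 17.9 and 17.7 TPM.

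The core genes were higher than those of the regulatory particle. Over the 14 core genes with a mean of at least 1 TPM the median was 57.9, 50.5 and 50.1 TPM in replicates 1, 2 and 3. Over the 17 ATPase and non-ATPase subunits it was 32.3, 33.7 and 29.9 TPM. The difference of the median log2(TPM + 1) levels was 0.70 ± 0.13 (SD, n = 3) and had this sign in each library. It is a difference per transcript length: on TMM-scaled CPM, which is not divided by length, the difference was -0.0013. The median transcript length was 1099 bases for the core genes and 1574 bases for the subunits of the regulatory particle. With Psma8 and Psmb11 included the log2(TPM + 1) difference was 0.56.

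The activators, which dock on the core in place of the regulatory particle, held both the highest gene of the set and some of its lower ones. Psme2, the beta subunit of the interferon-inducible PA28 ring, reached 309.5, 252 and 230.5 TPM in replicates 1, 2 and 3 (ENSMUSG00000079197.10, chromosome 14, 55587441 to 55591113). Psme1, its partner in that ring, reached 179, 142 and 146 TPM (ENSMUSG00000022216.17, chromosome 14, 55578123 to 55581529). The pair lies 5911 bases apart on opposite strands. Divided by the median of the 17 regulatory particle subunits of the same library, Psme2 was at 9.59, 7.49 and 7.70 times and Psme1 at 5.53, 4.23 and 4.89 times. Psme3, the nuclear PA28 gamma, had 22.6, 21.9 and 20.5 TPM, and Psme4, the large nuclear activator PA200, had 17.2, 12.4 and 14.3 TPM. Psme2b, a gene nearly identical to Psme2, was assigned 30.2, 14.3 and 19.8 TPM. All libraries of Psme1 and Psme2 were above all libraries of Psme3, Psme4 and Psme2b. The split between Psme2 and Psme2b is uncertain because they share reads, and Psme2b was 1.48 times its first value in the second quantification when both were put on a common total of the mRNA and lncRNA genes (rescaled TPM).

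The inhibitor and most assembly chaperones lay below the protein-coding median of 8.03 TPM, with Psmd10 and Psmg4 above it. Psmf1, the inhibitor PI31, had 6.45, 5.21 and 4.33 TPM in replicates 1, 2 and 3. The chaperones of the base were Psmd10, gankyrin, with 24.2, 18.1 and 17.3 TPM, Psmd5 with 3.97, 5.85 and 4.26 TPM, and Psmd9 with 4.63, 4.91 and 4.46 TPM. All libraries of Psmd10 were above those of Psmd5 and Psmd9. Of the chaperones that help to assemble the core, Psmg4 had 16.0, 10.1 and 11.7 TPM and was the highest in every library. Psmg3 had 4.02, 4.47 and 4.28 TPM, Psmg2 had 2.88, 3.49 and 3.49 TPM, and Psmg1 had 2.85, 2.55 and 3.01 TPM. Psmc3ip had 0.30, 0.40 and 0.49 TPM, below 1 TPM like the germ cell markers.

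Genes that work with the proteasome but bear other symbols were expressed throughout. Of 17 listed partners 16 were found, and all 16 reached 1 TPM in every library. The highest was Pomp, the chaperone that matures the core, at 82.6, 74.2 and 76.9 TPM in replicates 1, 2 and 3, and the lowest was the ubiquitin ligase Ube3c, with a mean of 3.80 ± 0.236 TPM (SD, n = 3). Pomp was thus higher than any of the 4 Psmg chaperones in each library. All 6 genes of ubiquitin and its activation reached 1 TPM, the lowest being Uba6, an E1 enzyme, at 3.85 ± 0.367 TPM (SD, n = 3). All 12 genes of the NRF1 route, by which cells make more proteasome when it is impaired, did so too. Nfe2l1, which encodes NRF1, had a mean of 62.7 ± 10.3 TPM, Nfe2l2, which encodes its relative NRF2 and was the highest of the list, 105 ± 28.4 TPM, and Ddi2, the protease that activates NRF1 and the lowest of the list, 5.98 ± 0.588 TPM (SD, n = 3 each).

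Most of the proteasome RNA was in protein-coding transcripts, with a few genes as exceptions. The 47 genes have 257 transcripts in the tables. Protein-coding transcripts took 92.1% ± 0.945 of the summed TPM, transcripts with a retained intron 5.56% ± 0.561, and transcripts annotated for nonsense-mediated decay 1.99% ± 0.512 (SD, n = 3 each). In the first quantification a single transcript took over 50% of the TPM of 43 of the 44 genes that reached 1 TPM, and over 90% of the TPM of 29. In the second quantification a single transcript took over 50% for 42. The leading transcript was the same in both quantifications for 43 of the 44. The exception was Psmf1, where Psmf1-201 led with 59.2% ± 10.05 and Psmf1-202 led the second quantification with 61.0% ± 7.62 (SD, n = 3 each).

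Psmd13, a lid subunit, was the gene without a leader over 50% in the first quantification. Its most abundant transcript was Psmd13-211, which is annotated for nonsense-mediated decay, with 10.6, 12.4 and 8.68 TPM in replicates 1, 2 and 3, a share of 41.1% ± 4.50 (SD, n = 3). The protein-coding Psmd13-201 had 7.76, 6.61 and 7.84 TPM. Psmd13-211 was the higher of these in each library, and its share in the second quantification was 37.6% ± 5.51 (SD, n = 3). Psma3 also divided its RNA: the protein-coding Psma3-204 had 30.2, 39.1 and 31.6 TPM, and the retained-intron Psma3-203 had 20.1, 14.4 and 14.9 TPM. In the second quantification Psma3-204 took 41.5% ± 13.0 (SD, n = 3), so Psma3 also had no leader over 50% there. In the first quantification, transcripts not annotated as protein-coding took 45.4% of Psmd13, 43.9% of Psma3 and 20.8% of Psme2. These were the 3 above 20% among the 44 genes that reached 1 TPM. For some genes that share depended on the quantification. It was 9.47% in the first and 48.7% in the second for Psmc6, and 43.9% and 55.6% for Psma3. It was 20.8% and 10.01% for Psme2, and 12.2% and 3.92% for Psme1. Psmb6, the highest beta ring gene, had 14.8% in the first and 14.3% in the second.

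**Figure D3:**
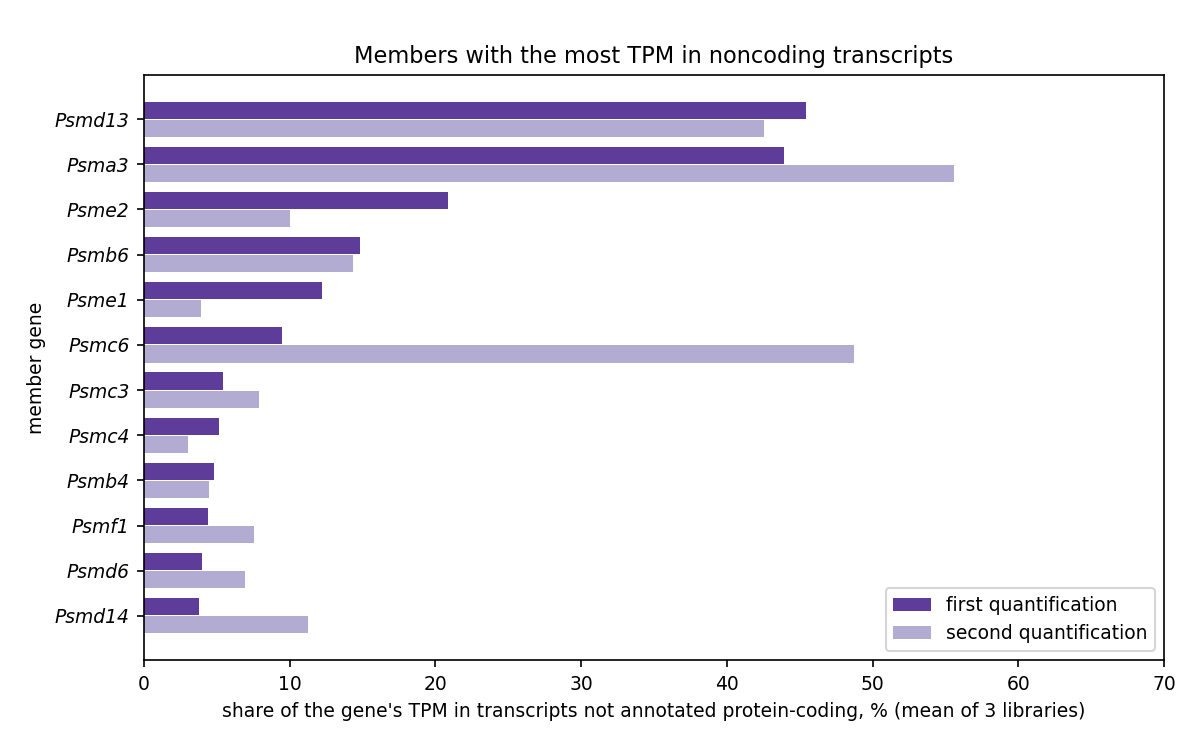
Share of the gene's TPM, in %, in transcripts not annotated as protein-coding, for the 12 genes with the largest share in the first quantification; bars are means of 3 libraries by the first and by the second quantification. Psmd13 and Psma3 are above 40% in both, while Psmc6 is at 9.47% in the first and 48.7% in the second.

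Promoters were searched for short motifs known from stress, growth and interferon control. RefSeq windows on GRCm38.p6, from 250 bases before to 50 bases after a gene's start, were matched by symbol for 39 of the 47 genes, in 42 windows. No window was matched for Psma8, Psmb1, Psmb2, Psmb7, Psmc3, Psmd3, Psmd7 and Psmg2. The sequences below are those of 5 genes that differ in level or behaviour, with capitals for the antioxidant response element (TGACNNNGC, the letters NRF1 and NRF2 bind), the ETS core (CCGGAAG) and an interferon response motif (GAAANNGAA), each on either strand. Psmb5 (chr14:54617946-54618245, reverse strand) and Psmb6 (chr11:70525107-70525406, forward strand) are the constitutive cutting subunits that stood on either side of their counterparts, and each holds 1 antioxidant response element shortly before its start.
Psmb5: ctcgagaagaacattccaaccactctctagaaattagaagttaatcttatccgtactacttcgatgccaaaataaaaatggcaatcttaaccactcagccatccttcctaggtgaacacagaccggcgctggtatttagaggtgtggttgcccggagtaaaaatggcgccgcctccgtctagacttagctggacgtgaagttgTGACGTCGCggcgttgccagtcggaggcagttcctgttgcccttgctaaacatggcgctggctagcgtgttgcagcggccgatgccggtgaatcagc
Psmb6: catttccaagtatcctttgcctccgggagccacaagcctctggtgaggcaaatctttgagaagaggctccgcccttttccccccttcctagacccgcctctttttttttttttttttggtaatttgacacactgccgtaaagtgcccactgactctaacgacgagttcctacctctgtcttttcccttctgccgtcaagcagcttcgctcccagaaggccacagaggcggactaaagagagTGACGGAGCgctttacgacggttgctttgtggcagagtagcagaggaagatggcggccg
Psmd12 (chr11:107479278-107479577, forward strand), a lid subunit, and Psme4 (chr11:30771525-30771824, forward strand), the activator PA200, hold both an antioxidant response element and an ETS core.
Psmd12: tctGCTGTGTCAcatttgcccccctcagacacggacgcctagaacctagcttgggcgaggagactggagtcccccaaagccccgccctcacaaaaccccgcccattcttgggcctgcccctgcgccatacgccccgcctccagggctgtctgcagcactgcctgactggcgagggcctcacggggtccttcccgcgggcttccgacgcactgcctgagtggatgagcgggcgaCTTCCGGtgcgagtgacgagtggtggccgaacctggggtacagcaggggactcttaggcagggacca
Psme4: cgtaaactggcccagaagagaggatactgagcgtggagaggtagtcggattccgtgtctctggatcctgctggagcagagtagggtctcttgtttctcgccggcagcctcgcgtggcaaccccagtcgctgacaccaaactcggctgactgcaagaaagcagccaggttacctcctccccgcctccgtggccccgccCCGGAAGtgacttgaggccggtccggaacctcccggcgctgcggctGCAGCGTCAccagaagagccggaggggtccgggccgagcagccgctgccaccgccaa
Psme1 (chr14:55578244-55578543, forward strand), the highest activator beside Psme2, holds neither of them but has 1 interferon response motif just after its start. Neither window of Psme2, which was higher than Psme1, holds an interferon response motif.
Psme1: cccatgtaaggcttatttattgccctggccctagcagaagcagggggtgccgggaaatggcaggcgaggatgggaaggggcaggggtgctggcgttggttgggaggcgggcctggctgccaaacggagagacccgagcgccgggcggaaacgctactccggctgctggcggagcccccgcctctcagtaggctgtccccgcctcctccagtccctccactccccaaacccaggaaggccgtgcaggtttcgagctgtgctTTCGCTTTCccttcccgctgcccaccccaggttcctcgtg

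The ETS core differed from the background by the most percentage points. It was in 38.1% of the 42 windows of the set, against 20.3% of the windows of protein-coding genes that reached 1 TPM in every library and 8.86% of all 32851 promoter windows. The interferon response motif was in 16.7%, against 7.77% and 8.56%. The genes that hold it are Psmb3, Psmb4, Psmc2, Psmd4, Psmd9, Psme1 and Psmg4. The antioxidant response element was in 14.3%, against 14.6% and 12.4%, so the set was at the background for these letters; the 6 genes that hold it are Psmb5, Psmb6, Psmc6, Psmd9, Psmd12 and Psme4. The CCAAT box (CCAAT) was in 33.3%, against 37.5% and 37.4%. The SP1 box (GGGCGG) was in 54.8%, against 63.9% and 35.7%, and the TATA box (TATAAA) in 7.14%, against 6.85% and 13.6%. Both strands were searched and matches of different motifs may overlap. A match is only a match of letters, and these shares are descriptions with no test.

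**Figure D4:**
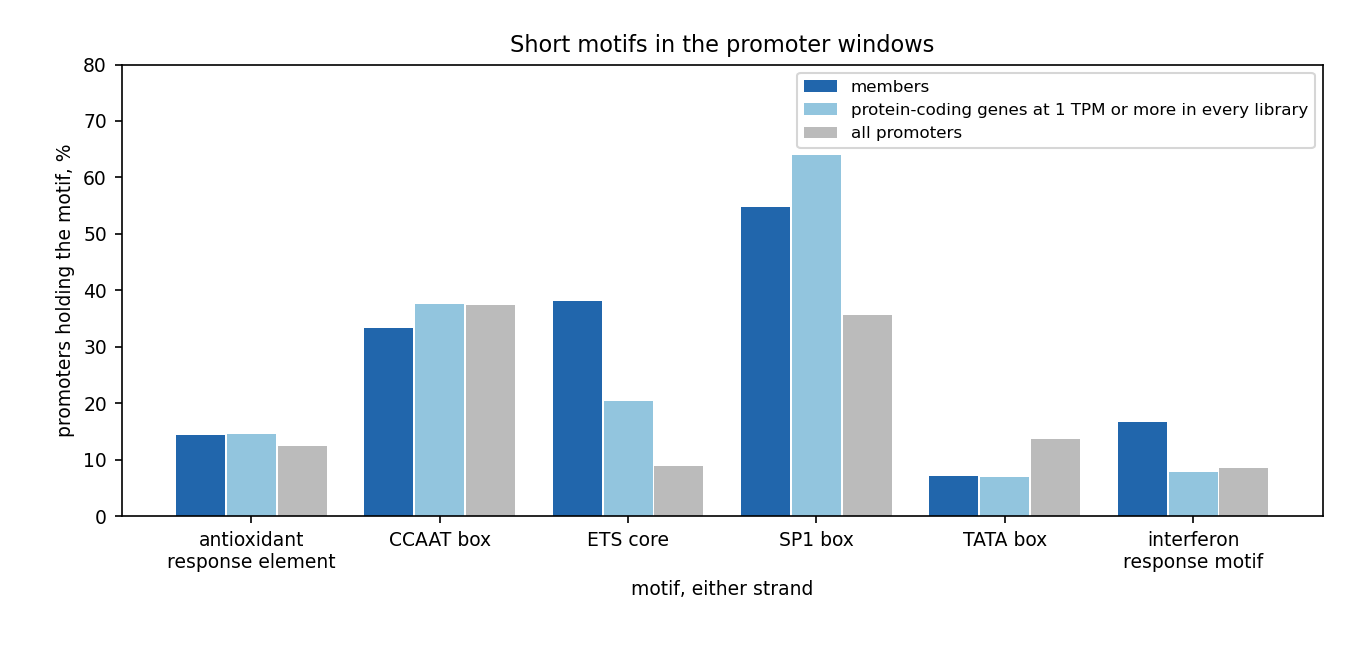
Share of promoter windows, in %, that hold each motif on either strand, for the set, for protein-coding genes that reached 1 TPM in every library and for all promoter windows. The ETS core is in 38.1% of the windows of the set, 20.3% of those of the expressed genes and 8.86% of all windows, while the antioxidant response element is at 14.3%, 14.6% and 12.4%.

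The genes are spread over 16 chromosomes, most often chromosome 11, which holds 10. Of the 47 genes, 8 start within 1000 bases of a protein-coding gene that runs the other way, or 17.02%, against 6.76% of all protein-coding genes and 11.6% of the 8612 that reached 1 TPM. Psmc2 is the closest, 32 bases from the start of Dnajc2, a ribosome-associated chaperone with a mean of 21.6 TPM, against 31.4 TPM for Psmc2. Psma7 shows that such neighbours need not match in level: it had a mean of 65.2 TPM, and Ss18l1, 76 bases away, 0.427 TPM.

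The 3 libraries were compared gene by gene with a chi-square test of the counts against TMM-scaled library sizes, adjusted over 14568 genes. A call says that libraries of this 1 group differ beyond counting error, not that a treatment acted. Of the 46 genes of the set that were tested 41 were called, or all but Psma5, Psmc5, Psmf1, Psmg1 and Psmc3ip, against 72.0% of all genes tested. Without replicate 2 the count was 24, against 52.5% of all genes. Of the proteasome partners 12 of 16 were called, of the ubiquitin genes 6 of 6 and of the NRF1 route 8 of 12. The call depends on depth. Among genes with at least 5000 summed counts 34 of 36 genes of the set were called, against 93.9% of protein-coding genes, so that the set was near the background there. The differences were small. On TMM-scaled CPM + 0.5, the median ratio of the highest to the lowest library was 1.19 over the set, against 1.26 over the 11833 protein-coding genes tested. With at least 5000 summed counts it was 1.18, against 1.22. The median coefficient of variation over libraries was 9.63%, against 13.5% over the protein-coding genes tested and 10.6% over those with at least 5000 summed counts.

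The direction of these small differences was shared by many genes of the set. Of the 46 genes tested, 31 were called and highest in replicate 2, 10 in replicate 1 and 0 in replicate 3. Over all genes tested the shares were 28.4%, 20.8% and 22.8%. Called or not, 32 of the 46 were highest in replicate 2 and 2 in replicate 3. Among protein-coding genes with 5000 summed counts, in 4 classes of transcript length, 37.4% to 53.0% were highest in replicate 2. In replicate 3 this was 4.44% to 18.3%, so a low share there was not particular to the set. All 17 ATPase and non-ATPase subunits of the regulatory particle were highest in replicate 2 on TMM-scaled CPM, and so were 7 of the 8 alpha ring genes. With DESeq2 size factors 15 of the 17 were, with rescaled TPM 16, with the second quantification 17, but on the deposited TPM, of which protein-coding genes held 26.5% in replicate 2 and 32.5% in replicate 1, 6 of the 17 were and the other 11 were highest in replicate 1. Of the 8 alpha ring genes, 5 were highest in replicate 2 on rescaled TPM and 2 on the deposited TPM. Of all genes tested, 38.8% were highest in replicate 2 on TMM-scaled CPM, 36.0% with DESeq2 size factors, 33.4% on rescaled TPM, 18.6% on the deposited TPM and 46.1% in the second quantification. Over the set the median log2 deviation of replicate 2 from the mean of the others was 0.17. It was 0.02 over all genes tested and 0.06 over the protein-coding genes tested. The set was at -0.03 in replicate 1, against -0.06 and -0.03, and at -0.10 in replicate 3, against -0.01 and -0.05. The value of replicate 2 was 0.14 on rescaled TPM and 0.29 in the second quantification. On rescaled TPM replicate 3 was at 0.00 and replicate 1 at -0.12, and without replicate 2 replicate 1 was at 0.07. Transcript length moved with the deviation of replicate 3. Over 3901 protein-coding genes with 5000 summed counts the median deviation of replicate 3 was -0.21 for genes under 1000 bases and -0.06 for genes of 2500 bases or more. For replicate 2 the set was above protein-coding genes of like length in each of 4 length classes: its median deviation was 0.12 over 10 genes under 1000 bases, against 0.11, then 0.18 over 19 genes up to 1500 bases, against 0.11, then 0.18 over 10 genes up to 2500 bases, against 0.09, and 0.26 over 7 longer genes, against 0.00. The set in these classes was all 46 genes tested, of which 36 had 5000 summed counts, while all the protein-coding genes had them. The part of the Malat1 and mitochondrial levels of replicate 3 in the differences between libraries was not tested.

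**Figure D5:**
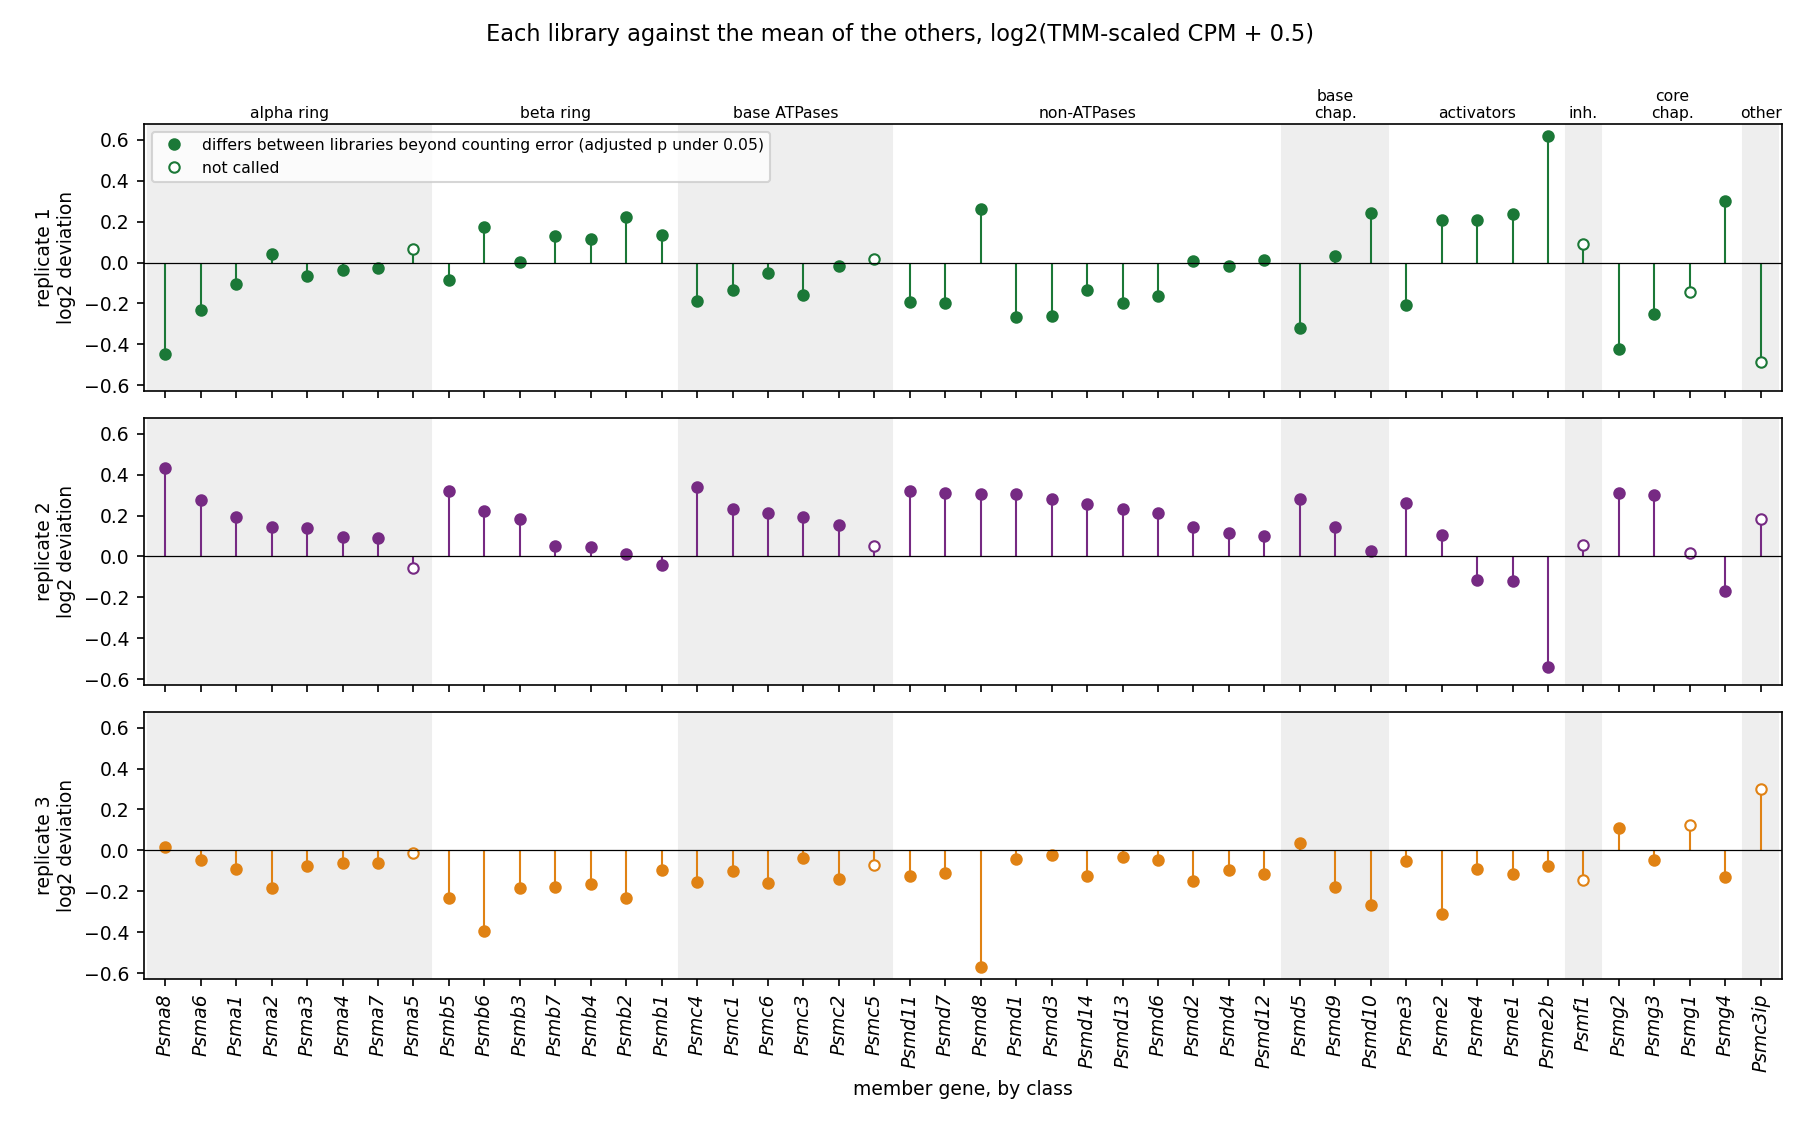
Deviation of each library from the mean of the other libraries, in log2(TMM-scaled CPM + 0.5), for the 46 genes tested, by class; filled points are genes whose libraries differ beyond counting error and open points are not called. All 17 regulatory particle subunits are above 0 in replicate 2, while Psme1, Psme2b, Psme4, Psmg4, Psma5 and Psmb1 are below 0 there and above 0 in replicate 1.

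A smaller group, 12 of the 46 genes tested, was highest in replicate 1 on TMM-scaled CPM, called or not. Of all genes tested, 29.2% were highest there. Among protein-coding genes with 5000 summed counts, by class of transcript length, 38.7% to 47.2% were highest in replicate 1. By these shares the group was no larger than the background, so a highest level in replicate 1 was not particular to the set. The group held Psme1, Psme2, Psme2b and Psme4, the beta ring genes Psmb1, Psmb2, Psmb4 and Psmb7, and Psma5, Psmd10, Psmf1 and Psmg4. Psma5 and Psmf1 were not called. In the second quantification 2 of the 7 beta ring genes tested were highest in replicate 1. Of the group, Psme1, Psme2b, Psme4, Psmb1, Psma5 and Psmg4 were below 0 in the deviation of replicate 2. Psme2, Psmb2, Psmb4, Psmb7, Psmd10 and Psmf1 were above 0, with replicate 3 their lowest library. The immunoproteasome genes Psmb8, Psmb9 and Psmb10 were highest in replicate 1 as well, on each of the 5 scales compared. Psme1, Psme2 and Psme4 were so on 4 of these scales, and 2 of the 3 were in the second quantification. All the scales use the same 3 libraries, so they are not independent. Beside the 29.2% on TMM-scaled CPM, 32.2% of all genes tested were highest in replicate 1 with DESeq2 size factors. The share was 23.7% on rescaled TPM, 50.3% on the deposited TPM and 27.3% in the second quantification. Relative to the regulatory particle median of the same library, a ratio which no scaling changes, Psmb8 was at 6.53, 4.40 and 5.52 times in replicates 1, 2 and 3. That median was itself highest in replicate 2, at 32.3, 33.7 and 29.9 TPM, which lowers any ratio there. Psmb5, highest in replicate 2 on TMM-scaled CPM, was at 1.32, 1.26 and 1.21 times. Pomp was at 2.56, 2.20 and 2.57 times. The ratio is thus no separate sign that Psmb8 was highest in replicate 1.

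The widest single differences were in a few genes. Psmd8 had 246, 251 and 168 CPM in replicates 1, 2 and 3 after TMM scaling, a ratio of 1.5 between the highest and the lowest library, with replicate 3 apart from the others. Psmb6 had 169.9, 174 and 131 CPM, with replicate 3 again the lowest. Psme2b had 29.7, 17.2 and 21.4 CPM, with replicate 1 the highest, and its reads are shared with Psme2. Psmg2 had 3.92, 5.70 and 5.15 CPM, a ratio of 1.45. Psma8 and Psmc3ip had ratios of 1.91 and 1.92 on 0.624, 1.19 and 0.893 CPM and on 0.451, 0.793 and 0.867 CPM, and Psmc3ip was not called. At the other end, Psmc5 had 74.5, 75.6 and 71.5 CPM, a ratio of 1.06, and Psma5 78.4, 74.1 and 75.6 CPM, also 1.06, and neither was called.

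The quantifications gave like levels for most of the set. Differences of the second from the first were taken as log2 ratios of rescaled TPM with 0.1 added to each. The largest were 1.10 for Psmb11, 0.54 for Psme2b, 0.49 for Psmc6, 0.28 for Psmf1 and -0.25 for Psme2. Psmb11 was at 0 in the first and averaged 0.196 in the second, so its value depends on the 0.1 added. Its TPM in the second, before rescaling, were 0.0040, 0.0031 and 0.0754 in replicates 1, 2 and 3.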

How the data were processed

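The deposited files are, per library, 1 gene table and 2 transcript tables, on mm10 with GENCODE M21 per the file headers and notes. The authors' gene table and first transcript table give expected counts and TPM, and the authors' second transcript table gives estimated counts and TPM, summed here per gene. The aligner is not given in the sources used here, nor are the quantifiers. The labels describe ribosome-depleted total RNA. Rows that name no gene (tRNA, spike-ins, phiX) held 0.350%, 0.169% and 0.168% of the counts of replicates 1, 2 and 3 and were left out.

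The genes, classes, lists and motifs were chosen with earlier results of these data known, and the interferon response motif was added last. Levels are deposited TPM, as mean ± SD over 3 libraries, or log2(TPM + 1) on a log scale. Rescaled TPM are these put on a common total of protein-coding and lncRNA genes. Expected counts were rounded for TMM scaling (edgeR 4.0.16) and for DESeq2 1.42.0 size factors. Genes with 10 or more counts in any library entered the chi-square test, adjusted by the Benjamini-Hochberg method at 0.05 over all of them. It covers counting error and assumes independent reads, which PCR copies are not. Deviations are on log2(TMM-scaled CPM + 0.5). Motifs were matched on both strands by their letters.

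Named with values in each library were the catalytic subunits, the highest and lowest gene of each class, activators, inhibitor, chaperones, genes under 1 TPM, the 5 genes with the widest range over libraries and the 5 that differed most between quantifications; any further gene was picked with its values known. A value that this rule calls for is not reported here. Alternatives were a pseudocount of 0.1, the second quantification, rescaled TPM, DESeq2 factors, TMM-scaled CPM, other filters and leaving out each library. The software was Python 3.11.15 with scipy 1.17.1, numpy 2.4.6, matplotlib 3.10.9 and pandas 2.3.3, and R 4.3.3. With 1 group no comparison of conditions was made.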

Additional observations from a re-analysis of the deposited data

How the results depend on the processing

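Over the 14 summary results 81 alternative values were computed, and 71 moved by less than 1 SD over libraries or, for counts and the coefficient of variation, stayed within 1.5 times. These include changes of sign around 0: the deviation of replicate 1, -0.03, was 0.07 without replicate 2, and that of replicate 3, -0.10, was 0.00 on rescaled TPM. For the deviations that SD was 0.14, the spread of the values of the 3 libraries. It is larger than the deviations of replicates 1 and 3, so the limit of 1 SD says little about these. The median log2 level of the set, 5.01 on deposited TPM, was 4.02 in the second quantification, 6.75 on rescaled TPM and 6.31 on TMM-scaled CPM, which are other scales. The core minus regulatory particle difference, 0.70, was 0.56 with all members and -0.0013 on TMM-scaled CPM, which is not divided by length. The 41 genes called between libraries became 24 without replicate 2 and ranged up to 36 without another library, while the share of all genes called was 72.0% with all libraries and 52.5% without replicate 2. In the second quantification the deviation of replicate 3 was -0.24, against -0.10, the median coefficient of variation 14.6%, against 9.63%, and the Psmb7 minus Psmb10 difference -1.53, against -1.71. The 17 regulatory particle subunits highest in replicate 2 were 6 on deposited TPM, a comparison added after seeing the data, as was the deviation on rescaled TPM. Where no value shows the cause, the cause was not tested. No paired analysis was possible because the labels give only 1 group. Depth limits Psma8, Psmb11 and Psmc3ip, with at most 75 counts in a library.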
